A study of Mus musculus with 11 samples.

Results

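The 10 genes described here encode chemokines that epithelial and stromal cells are known to make: Cxcl1, Cxcl2, Cxcl5, Cxcl12, Cxcl14, Cxcl16, Ccl2, Ccl7, Ccl20 and Cx3cl1. They were chosen by gene symbol, with earlier results of these data known. Of the 55681 array probes, 11 carry their names, 2 of them for Cxcl12. The arrays, single-colour mouse gene expression arrays, hold total RNA of 3 kinds of cells. Otospheres are spheres grown in suspension from dissociated cochlear cells, and were measured on 6 arrays (OS1 to OS6). Cochlear sensory epithelia (CSE), dissected tissue that contains the sound-sensing hair cells and their supporting cells, were measured on 3 arrays (CSE1 to CSE3). The dissected tissue also showed mesenchyme, endothelial and macrophage markers, given below. Mouse embryonic stem cells (ESCs) were measured on 2 arrays, one of the G4-2 line (ES1) and one of the D3 line (ES2), both at passage 13.

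The otospheres and CSE came from ICR mice at postnatal day 1, with the cochleae of 10 mice pooled for a preparation. Otospheres were grown for 4 or 5 days, passaged once, grown for 4 or 5 days more in medium with bFGF at 10 ng/mL and IGF1 at 50 ng/mL, and strained so that the solid spheres were kept. The CSE was taken directly from the animal, so that growth in culture and kind of sample cannot be told apart between otospheres and CSE. The ESCs were grown with serum and LIF on gelatin, and the 2 ESC arrays differ in cell line as well as in slide. The ESCs are established lines and not cells of these ICR mice. Genetic background and kind of cell therefore cannot be told apart in comparisons with ESCs. The otosphere medium also held N2 and B27 supplements, heparan sulfate and ampicillin, which are not listed for the ESC medium. No drug is described as an experimental treatment of any group.

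The arrays lay on 2 slides: slide 1 held ES1, OS1 to OS3, CSE1 and CSE2, and slide 2 held ES2, OS4 to OS6 and CSE3. The arrays OS1 and OS2 differed by less than the noise between repeated spots of an array, and so did OS4 and OS5 (0.761 and 0.334 of it by a robust measure, with the next closest pair at 1.28), so each pair was averaged and counted as 1 sample. That left 4 otosphere, 3 CSE and 2 ESC samples, and the p-values measure the spread between these samples. By ordinary standard deviations the OS1 and OS2 pair stood at 1.00 of the spot noise, at the limit of the rule. Of 6 pluripotency markers, 5 were lower in otospheres and in CSE than in ESCs. Pou5f1, a pluripotency factor, lay at a log2 intensity of 14.02 to 14.27 in ESCs and 5.25 to 5.56 in the other samples. The brightest Nanog probe ran against the labels, at 8.26 to 8.50 in ESCs, 8.71 to 10.75 on the otosphere arrays and 9.41 to 10.34 in CSE. The authors list Nanog among the genes upregulated only in ESCs, so this probe differs from their result for the gene. Myo7a, a hair cell myosin, lay at 10.24 to 10.68 in CSE and 7.22 to 8.92 in otospheres. All levels below are log2 intensities after background correction and quantile normalization, and a difference of 1 is a doubling. Levels of different probes are not comparable with each other.

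Chemokines are small secreted proteins that bind receptors coupled to G proteins and draw cells along their gradient. CXCL1, CXCL2 and CXCL5 act on CXCR2 and recruit neutrophils. CCL2 and CCL7 act on CCR2 and recruit monocytes. CCL20 acts on CCR6. CXCL12 acts on CXCR4 and is scavenged by ACKR3, and is made widely by mesenchyme. CXCL16 and CX3CL1 are made as membrane proteins with a chemokine domain on a stalk, which ADAM10 and ADAM17 cut, and their receptors are CXCR6 and CX3CR1. CXCL14 is a constitutive chemokine of epithelia. Cxcl1 and Cxcl2 are next to each other in the RefSeq gene order, as are Ccl2 and Ccl7. Several of the inducible members are known targets of NF-kB, a factor downstream of interleukin-1 and tumour necrosis factor.

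RefSeq promoter sequences (GRCm38.p6) were at hand for 6 of the 10 genes, and 3 are shown because they hold a match to a kappa B-like motif, the kind of site NF-kB binds. The motif, GGGANNNNCC on either strand, was chosen after these windows had been read. Each line gives the 120 bases before the transcription start, 5′ to 3′ on the strand of the gene, with the motif matches in capitals.
Cxcl1 (chr5:90891125-90891244, plus strand): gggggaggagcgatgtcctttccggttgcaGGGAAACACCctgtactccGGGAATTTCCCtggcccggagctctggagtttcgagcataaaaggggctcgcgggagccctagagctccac
Cxcl2 (chr5:90903779-90903898, plus strand): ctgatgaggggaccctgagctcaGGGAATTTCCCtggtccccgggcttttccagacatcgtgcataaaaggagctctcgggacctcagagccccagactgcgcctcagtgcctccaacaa
Ccl20 (chr1:83116646-83116765, plus strand): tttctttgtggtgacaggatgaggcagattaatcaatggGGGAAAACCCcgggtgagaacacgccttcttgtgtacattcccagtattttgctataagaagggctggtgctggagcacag
The 11 capital bases of Cxcl2, and the longer run of Cxcl1, match the motif on both strands at overlapping positions. Over the 250 bases before the start, 3 of the 6 member promoters held the motif, against 17.6% of 32851 promoters in the same table. The windows of Cxcl1 and Cxcl2 share a run of 14 bases, GGGAATTTCCCTGG, which occurs in no other promoter of the table. Cxcl12, Cxcl14 and Cx3cl1 held no match in their windows. The 3 genes shown behaved differently on the arrays: otosphere and CSE levels of Cxcl1 differed, those of Cxcl2 overlapped, and none of the arrays had Ccl20 well above background.

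Otospheres differed from CSE in 5 of the 9 members tested, all of them higher in otospheres: Cxcl1, Cxcl5, Cxcl16, Ccl2 and Cx3cl1. By limma 0 members were lower at an adjusted p under 0.05, and 1, Cxcl12, at an unadjusted p under 0.05. Of all 47997 probes tested, 4.84% were higher and 6.19% were lower. The median difference of the 9 members was 2.48, against 0.02 over all probes. Ccl20 was not tested, because its signal was not above the background limit. The tests are limma's, with Benjamini-Hochberg adjustment over all probes.

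**Figure D1:**
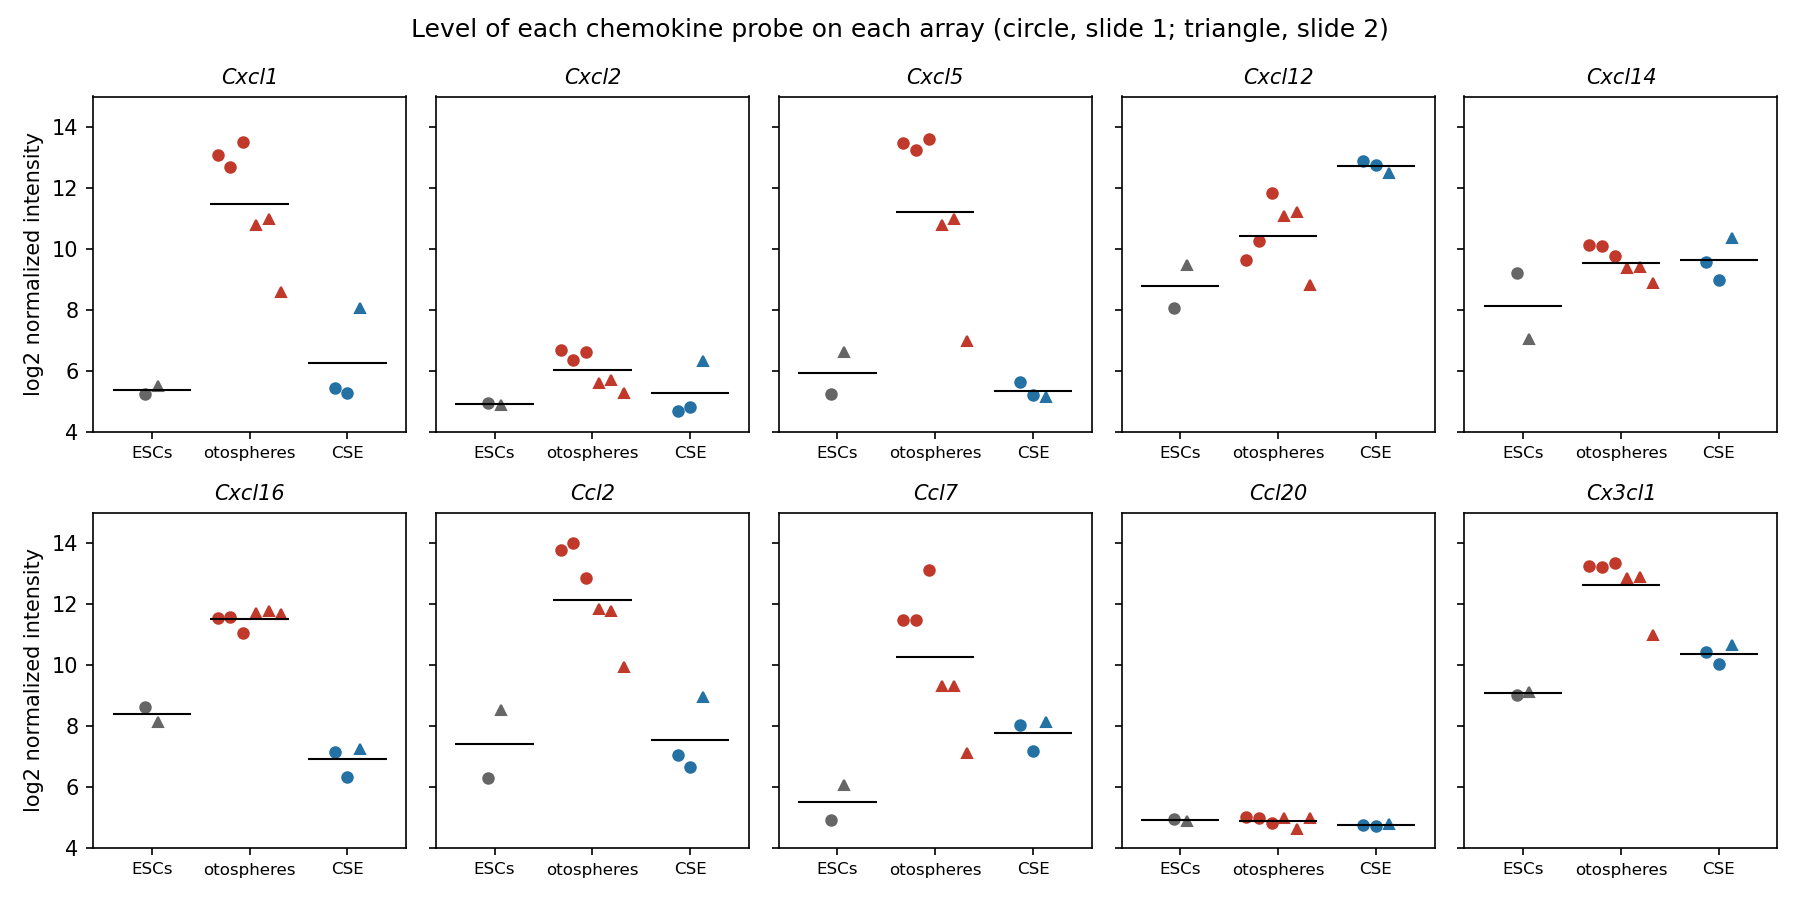
Log2 normalized intensity (vertical axis) of the probe of each chemokine on each of the 11 arrays, by group (circles, slide 1; triangles, slide 2), with the brightest probe for Cxcl12. Bars are group means with OS1 and OS2, and OS4 and OS5, averaged first. Every otosphere array lies above every CSE array for Cxcl1, Cxcl5, Cxcl16, Ccl2 and Cx3cl1, every otosphere array lies below every CSE array for Cxcl12, and Ccl20 stays between 4.63 and 5.02 throughout.

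Among the neutrophil-recruiting chemokines, Cxcl1 (probe A_51_P363187) was at 13.07, 12.67, 13.51, 10.78, 10.99 and 8.57 on OS1 to OS6. It was at 5.44, 5.28 and 8.07 on CSE1 to CSE3. The otosphere arrays all lay above the CSE arrays, but OS6 exceeded CSE3 by little. The mean of otospheres was 11.46 ± 2.22 (SD, n = 4) and that of CSE 6.26 ± 1.57 (SD, n = 3), a difference of 5.19 (SE 1.15) or 36.6-fold, with an adjusted p of 0.0213. The call was lost without CSE1, without CSE2, or without OS1 and OS2, with adjusted p of 0.0937, 0.0760 and 0.0533.

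Cxcl5 (probe A_55_P1990032), which like Cxcl1 is induced in epithelia by inflammatory cytokines, had the widest range within the otospheres. It was at 13.47, 13.25, 13.60, 10.78, 10.99 and 6.99 on OS1 to OS6, and at 5.64, 5.20 and 5.13 on CSE1 to CSE3. Only 1 of the 3 CSE arrays was well above background, whereas all 6 otosphere arrays were. The difference was 5.88 (SE 1.40), with an adjusted p of 0.0287, and rests on CSE levels of which 2 were near background. Leaving out any single cochlear sample other than OS6 raised the adjusted p to between 0.0539 and 0.101, so that the call depended on each of CSE1, CSE2, CSE3, OS3 and the 2 averaged pairs.

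Cxcl2 (probe A_51_P217463), the gene next to Cxcl1, was dim on every array. It was at 6.67, 6.34, 6.61, 5.59, 5.70 and 5.28 on OS1 to OS6, well above background on 5 of them, and at 4.69, 4.81 and 6.33 on CSE1 to CSE3, well above background on 1. The groups overlapped, since CSE3 lay above OS4, OS5 and OS6. The difference of 0.73 (95% interval -0.31 to 1.78) had an adjusted p of 0.440.

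Among the monocyte-recruiting chemokines, Ccl2 (probe A_51_P286737) is spotted 10 times on each array, with an SD of 0.155 to 0.259 between spots. Its means were 13.76, 14.00, 12.87, 11.83, 11.77 and 9.94 on OS1 to OS6. They were 7.06, 6.64 and 8.97 on CSE1 to CSE3. The groups did not overlap, and the spread between samples was far above that between spots. The difference was 4.57 (SE 0.97), or 23.7-fold, with an adjusted p of 0.0180, and the call was lost without CSE1 (adjusted p = 0.0797) or without CSE2 (0.0671). The authors' deposited log2 table lists Ccl2 at 0.580 to 1.41, and the scanner level is 9.97 times its value in that table (median over arrays). Of the 372 deposited probes spotted 10 times, 345 have a ratio within 20% of 10, so differences read from it for Ccl2 are on a compressed scale.

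Ccl7 (probe A_51_P436652), next to Ccl2, was at 11.47, 11.47, 13.13, 9.32, 9.31 and 7.13 on OS1 to OS6, and at 8.02, 7.18 and 8.14 on CSE1 to CSE3. OS6 lay below all CSE arrays, so the groups overlapped, and the other 5 otosphere arrays lay above them. The difference of 2.48 (SE 1.20) did not pass, with an adjusted p of 0.279. Without OS6 it was 3.53, with an adjusted p of 0.0417.

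Of the membrane-bound chemokines, Cxcl16 differed by nearly the same amount in every otosphere sample. Its probe (A_52_P99888) was at 11.55, 11.57, 11.04, 11.73, 11.76 and 11.69 on OS1 to OS6, and at 7.14, 6.34 and 7.24 on CSE1 to CSE3. The gap between the groups was several times the spread within either. The difference was 4.61 (SE 0.28), or 24.3-fold, with an adjusted p of 5.18e-05, and it stayed past the threshold in all 22 alternative fits, between 4.25 and 4.86.

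Cx3cl1 (probe A_51_P196925) was at 13.25, 13.20, 13.36, 12.86, 12.89 and 10.99 on OS1 to OS6, and at 10.44, 10.02 and 10.65 on CSE1 to CSE3. The groups did not overlap, with OS6 closest to the CSE arrays. The difference was 2.24 (SE 0.52), or 4.73-fold, with an adjusted p of 0.0261. It rose to between 0.0529 and 0.0871 when any single cochlear sample other than OS6 was left out (CSE1, CSE2, CSE3, OS3 or either averaged pair).

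Cxcl12, the chemokine of mesenchyme, ran the other way. Its brighter probe (A_51_P172502) was at 9.62, 10.26, 11.82, 11.09, 11.20 and 8.81 on OS1 to OS6, and at 12.89, 12.75 and 12.50 on CSE1 to CSE3. Every otosphere array lay below every CSE array. The difference of -2.29 (SE 0.66) had an adjusted p of 0.0621, and without OS3 it was -2.75 with an adjusted p of 0.0219. The other probe (A_55_P1966204), which represents a different transcript of the gene, gave -1.47 (SE 0.58) with an adjusted p of 0.166, and on it OS3, at 10.86, lay within the CSE range of 10.65 to 11.01.

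Cxcl14 (probe A_51_P209183) was at 10.13, 10.09, 9.77, 9.38, 9.39 and 8.90 on OS1 to OS6, and at 9.56, 8.96 and 10.37 on CSE1 to CSE3. The groups overlapped throughout, and the difference of -0.09 had a 95% interval of -1.32 to 1.13. Ccl20 (probe A_55_P2175885) lay between 4.63 and 5.02 on all 11 arrays and was well above background on none, which says only that it was not detected by this probe.

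**Figure D2:**
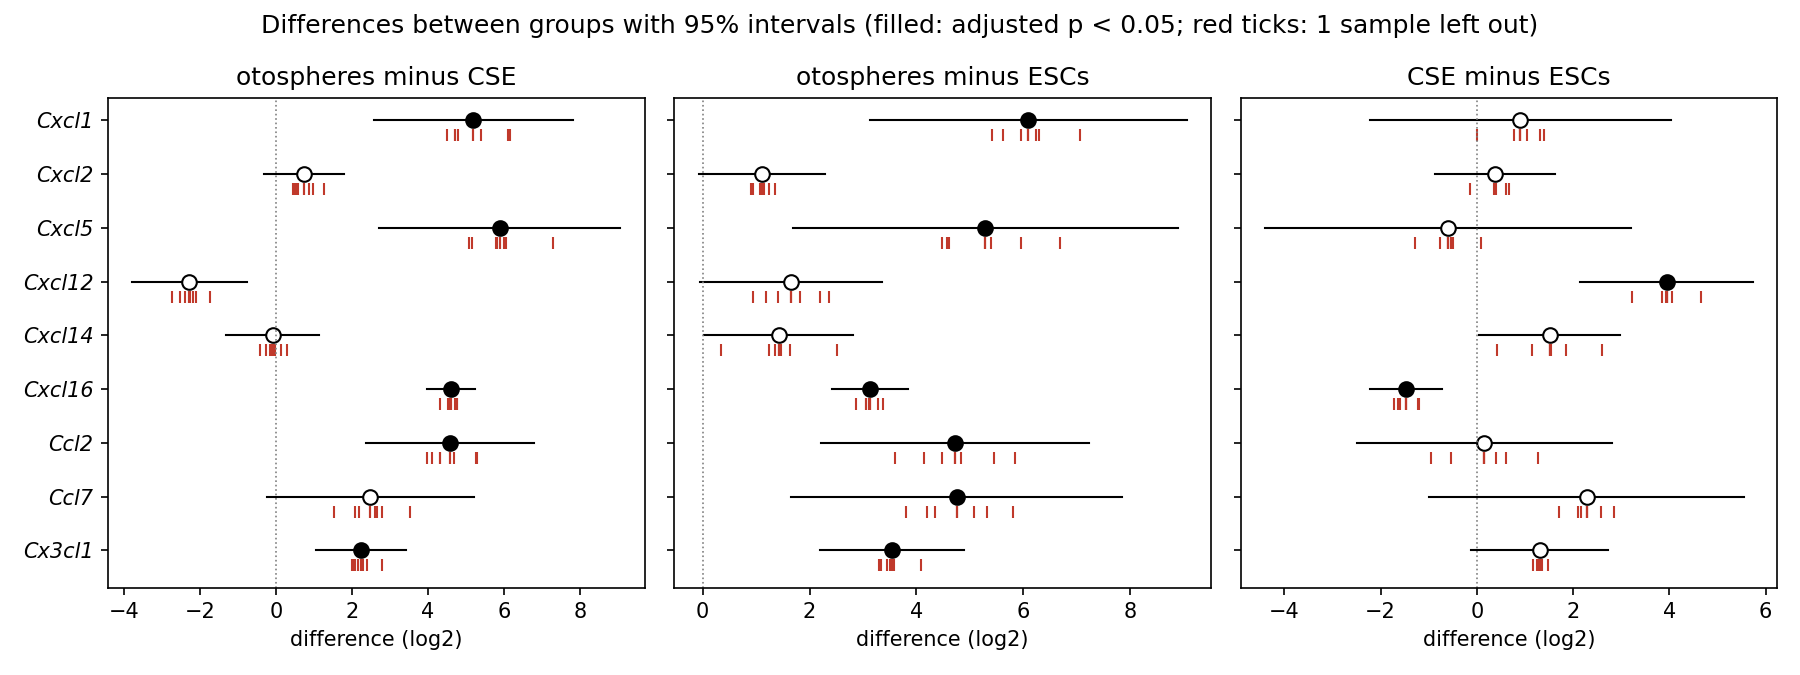
Log2 difference (horizontal axis) between otospheres and CSE, otospheres and ESCs, and CSE and ESCs for the 9 members tested. Points are limma estimates, filled where the adjusted p is under 0.05, lines are unadjusted 95% intervals, and red ticks are the estimates with 1 sample left out. Cxcl16 has the narrowest intervals, and the 5 filled points between otospheres and CSE lie between 2.24 and 5.88.

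The otosphere samples did not carry the chemokines equally. OS6 was the lowest of the 4 otosphere samples for 8 of the 9 members, and OS3 was the lowest for Cxcl16. The mean level over the 9 members was 11.44 in OS1 and OS2, 11.75 in OS3, 10.41 in OS4 and OS5, and 8.70 in OS6, against 7.46 to 8.60 in CSE. Within slide 1 the difference between otospheres and CSE was 7.83 for Cxcl1, 8.06 for Cxcl5, 6.53 for Ccl2, 4.70 for Ccl7 and 3.06 for Cx3cl1. Within slide 2 it was 1.66, 3.80, 1.90, 0.08 and 1.28 for the same genes. Cxcl16 gave 4.56 and 4.48, and Cxcl12 gave -1.94 and -2.53. For Cxcl2 and Cxcl14 the sign turned, from 1.81 to -0.87 and from 0.68 to -1.23. CSE3, the single CSE array of slide 2, was the highest CSE array for Cxcl1, Cxcl2, Cxcl14, Cxcl16, Ccl2, Ccl7 and Cx3cl1. The change of the difference from slide 1 to slide 2, tested in a fit added after these values had been seen, passed the adjusted threshold for none of 47995 probes by limma (2914 had an unadjusted p under 0.05), with adjusted p for the members from 0.634 to 0.993 and unadjusted p of 0.00186 for Cxcl1, 0.000198 for Cxcl2 and 0.00459 for Ccl2. OS6 and CSE3 were also left out together, a choice made from these values that enlarges the differences of most members by construction. The difference was then 7.06 for Cxcl1, 7.20 for Cxcl5 and 2.92 for Cx3cl1.

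**Figure D3:**
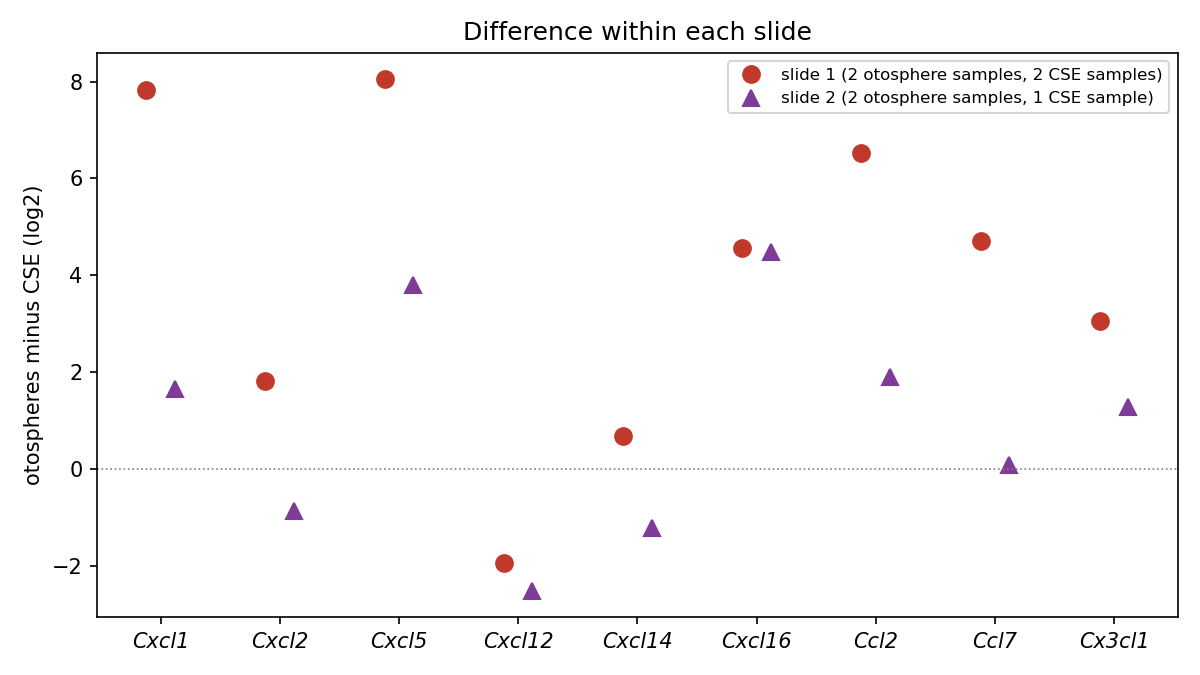
Otospheres minus CSE (log2, vertical axis) within each slide for the 9 members tested. Circles are slide 1 (2 otosphere and 2 CSE samples) and triangles are slide 2 (2 otosphere samples and 1 CSE sample). The values of Cxcl16 nearly coincide at 4.56 and 4.48, while those of Cxcl1 are 7.83 and 1.66.

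Against ESCs, 6 of the 9 members were higher in otospheres and 0 were lower by limma (7 and 0 at an unadjusted p under 0.05). Of all probes, 12.1% were higher in otospheres than in ESCs and 15.6% were lower. The 6 were the 5 members above with Ccl7. The ESC comparison shares its otosphere samples with the comparison above, so the results are not independent of each other.

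Cxcl1 was at 5.22 in ES1 and 5.50 in ES2, not well above background in either, and otospheres were at least 67.5-fold higher, with an adjusted p of 0.00763. This bound sets the otosphere mean against the dimmest signal that counts as above background on the ESC arrays. It leaves out the spread between samples, and the 95% interval of the log2 difference was 3.13 to 9.06. Cxcl16 was at 8.63 and 8.13 in ES1 and ES2, between otospheres and CSE, and otospheres were higher by 3.13 (SE 0.31, adjusted p = 0.000151). Cx3cl1, at 9.03 and 9.11, was below every otosphere array, with a difference of 3.54 (SE 0.59, adjusted p = 0.00209). The calls of these 3 genes held in all 22 alternatives.

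Ccl2 was at 6.28 in ES1 and 8.52 in ES2, and otospheres were higher by 4.73 (SE 1.11, adjusted p = 0.0117). The call was lost without ES1 (adjusted p = 0.105). With a normexp offset of 50 in place of 16, the calls of Ccl7 and Cxcl5 against ESCs were also lost, with adjusted p of 0.0541 and 0.0538. Ccl7, at 4.93 and 6.07, differed by 4.76 (SE 1.37, adjusted p = 0.0296), and the adjusted p was 0.156 without ES1, 0.0771 without ES2 and 0.0645 without OS1 and OS2. Cxcl5, at 5.24 and 6.60, differed by 5.29 (SE 1.59, adjusted p = 0.0360), and its adjusted p ranged from 0.0505 to 0.179 when any single sample other than OS6 was left out. The otospheres lay above both ESC arrays for all 3 genes, with OS6 at 6.99 for Cxcl5 only slightly above ES2.

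Cxcl12 was at 8.06 and 9.48 in ES1 and ES2, and OS6 lay within that range. The difference from ESCs of 1.66 had an adjusted p of 0.144, while the other probe gave 3.09 with an adjusted p of 0.00724, so the call depends on the probe. Without OS6 the brighter probe gave 2.20 with an adjusted p of 0.0245. Cxcl14 was at 9.20 in ES1 and 7.03 in ES2, a gap between the ESC lines about as wide as that of Ccl2. Its difference of 1.42 had an adjusted p of 0.124, or 0.0152 without ES1. Cxcl2 was not well above background in ESCs, and the otosphere difference of 1.11 did not pass (adjusted p = 0.157).

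CSE differed from ESCs in 2 of the 9 members, and in opposite directions. Of all probes 13.2% were higher in CSE than in ESCs and 15.6% were lower. Cxcl12 was higher in CSE by 3.94 (SE 0.79), or 15.4-fold, with an adjusted p of 0.00547, and by 4.56 on the other probe. This call held in all 22 alternatives. Cxcl16 was lower in CSE, with a difference of -1.48 (SE 0.33, adjusted p = 0.00926), and without ES1 the adjusted p was 0.0670. The order of the mean levels was thus otospheres, ESCs, CSE for Cxcl16, and CSE, otospheres, ESCs for Cxcl12 with the otospheres not called from either neighbour on the brighter probe. For Cxcl1, Cxcl2, Cxcl5, Cxcl14, Ccl2, Ccl7 and Cx3cl1 the difference between CSE and ESCs did not pass the test, and for Ccl7 it was 2.28 (95% interval -0.99 to 5.55).

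None of the receptors of these chemokines passed as higher in otospheres. Against CSE, limma called 3 of 17 tested chemokine receptors lower in otospheres and 0 higher (0 also at an unadjusted p under 0.05), and their median difference was -0.02. For this list and those below, the shares over all probes were 4.84% higher and 6.19% lower. The share of all probes at an unadjusted p under 0.05 was not computed. Cx3cr1, the receptor of CX3CL1 and a marker of microglia and other macrophages, was at 5.23 to 5.74 on the otosphere arrays, well above background on 1 of the 6, and at 10.33, 9.93 and 10.07 on CSE1 to CSE3, a difference of -4.66 (SE 0.17, adjusted p = 4.97e-06). Ackr3, the scavenger of CXCL12, differed by -2.28 (adjusted p = 0.000921) and Cxcr4, its signalling receptor, by -1.95 (adjusted p = 0.00251). No array showed Cxcr2 or Ccr6 well above background. Cxcr6 differed by 0.14 (adjusted p = 0.884), and Ccr2 was not tested.

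The sheddases of the membrane-bound chemokines were present in both cochlear groups. Adam10 lay at 13.17 to 13.91 in otospheres and 13.03 to 13.33 in CSE, with a difference of 0.35 (adjusted p = 0.557), and Adam17 differed by 0.76 (adjusted p = 0.207). Dpp4, the protease that trims CXCL12, differed by 1.21 (adjusted p = 0.181). Of 9 genes of chemokine processing and presentation, limma called 2 higher in otospheres and 0 lower (4 and 0 at an unadjusted p under 0.05): the heparan sulfate proteoglycans Sdc1, by 1.45 (adjusted p = 0.0309), and Sdc4, by 1.41 (adjusted p = 0.00887).

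Against CSE, 4.84% of all probes were higher in otospheres and 6.19% lower. Among 19 tested genes of upstream cytokines and NF-kB, 9 were higher in otospheres against CSE and 0 lower (15 and 0 at an unadjusted p under 0.05, by limma), and the median difference was 1.35. Among the called genes the 4 with the largest difference were Bcl3, a nuclear partner of p50 and p52, by 4.62 (adjusted p = 0.00921), Relb, by 2.52 (adjusted p = 0.00134), Nfkb2, by 2.29 (adjusted p = 0.00146), and Birc3, an inhibitor of apoptosis that NF-kB induces, by 2.09 (adjusted p = 0.0288). Bcl3 was at 12.40, 12.79, 13.48, 11.43, 11.25 and 9.24 on OS1 to OS6 and at 7.28, 6.47 and 7.39 on CSE1 to CSE3, again with OS6 lowest. In ESCs it was as bright as in the brighter otospheres, at 13.19 and 12.64. The count was 5 without CSE2 and 15 in the fit of single arrays with the replicate number as a block.

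Against CSE, 3 of 20 other chemokines tested were higher in otospheres and 2 lower, and the median difference was 0.19. At an unadjusted p under 0.05 by limma, 7 were higher and 5 lower. Ccl5, which attracts T cells and monocytes, was higher by 3.82 (adjusted p = 0.00236), at 8.47 to 10.87 on the otosphere arrays and 5.77 to 6.55 in CSE. Cxcl17, a mucosal chemokine, was at least 4.40-fold higher by a bound of the same kind on its CSE level (adjusted p = 0.0126). The 95% interval of its log2 difference was 1.21 to 3.17. Ccl17 was higher by 1.28 (adjusted p = 0.0151). Pf4, made by megakaryocytes and by some tissue macrophages, was lower, with a difference of -5.16 (adjusted p = 0.00276), and Ccl24 differed by -1.15 (adjusted p = 0.00338).

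**Figure D4:**
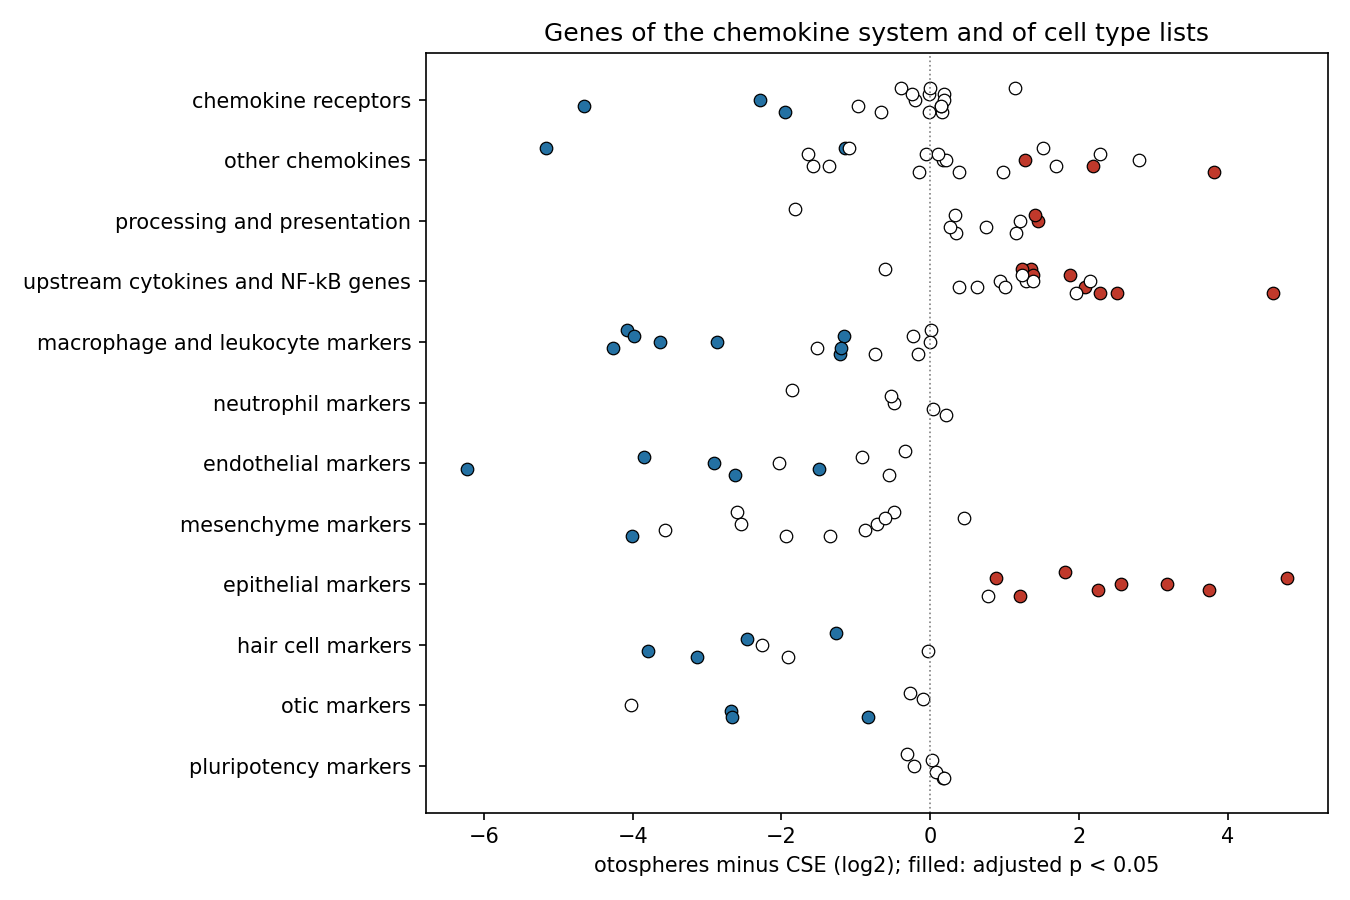
Otospheres minus CSE (log2, horizontal axis) for each tested gene of 12 lists, by list (vertical axis, spread only to separate points). Filled points passed an adjusted p of 0.05, red where higher and blue where lower in otospheres. The NF-kB list has 9 red and no blue points, the receptor list 3 blue and no red, and the macrophage list 8 blue and no red.

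Marker lists of other cell types moved with the same comparison, and their part in the chemokine differences was not tested. Among all probes, 4.84% were higher in otospheres and 6.19% lower. In bulk samples fewer cells of a type and less RNA per cell cannot be told apart. Of 9 epithelial markers, 8 were higher in otospheres, with Krt8 by 4.79 and Krt18 by 3.75, and the mean level of the list was 13.12 to 14.46 in otospheres and 11.47 to 11.96 in CSE. Epcam and Cdh1 were higher by 0.89 and 1.21. Without both OS6 and CSE3, 3 of the list were called. The epithelial mean was highest in OS6 and in OS4 and OS5, at 14.46 and 14.45, the samples in which Cxcl1, Cxcl5, Ccl2, Ccl7 and Cx3cl1 were lowest.

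Of 11 mesenchyme markers, limma called 1, Col1a1, lower in otospheres with a difference of -4.01 (adjusted p = 0.0140). At an unadjusted p under 0.05, 4 were lower and 0 higher, and the median difference from CSE was -1.35. The mean of the mesenchyme list was 11.60 in OS1 and OS2, 12.23 in OS3, 10.44 in OS4 and OS5 and 8.20 in OS6, against 12.07 to 12.57 in CSE. Within the otospheres it thus ran in the same order of samples as the mean of the 9 chemokines, with OS3 highest and OS6 lowest. The OS3 mean of the list lay within the CSE range. This order was not particular to mesenchyme. The means of the NF-kB genes, other chemokines, processing genes and endothelial markers had it too, while the remaining lists were ordered otherwise. The NF-kB mean was 9.88 in OS3 and 8.48 in OS6, and the endothelial mean 7.28 and 6.42.

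Of 14 macrophage and leukocyte markers, 8 were lower in otospheres and 0 higher by limma, adjusted or not, led by Mrc1, C1qc, Tyrobp and C1qa. The list mean was 6.56 to 7.06 in otospheres and 8.46 to 8.57 in CSE. No otosphere array showed Mrc1, C1qc or C1qa well above background, while 1 showed Tyrobp. Not all markers of the list were called lower. Aif1 was well above background on all 6 otosphere arrays and not called at -1.52 (adjusted p = 0.231). Itgam differed by 0.01, but its probe was also bright in ESCs, at 11.80 and 11.65, and ranged from 11.97 to 14.57 in CSE. Lyz2 was well above background on 1 of the 6 otosphere arrays and on all 3 CSE arrays. In OS3 it was at 7.36, above the CSE range of 5.85 to 6.49. Csf1r differed by -1.20 (adjusted p = 0.0307), while Ptprc differed by 0.00 and lay between 5.50 and 6.13 on all arrays. Of 9 endothelial markers 5 were lower in otospheres, with Cdh5 by -2.62 and Pecam1 not called at -0.56, and of 5 neutrophil markers limma called 0 in either direction, adjusted or not.

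Of 7 hair cell markers 4 were lower in otospheres than in CSE, among them Pvalb and Myo7a, which differed by -3.79 and -2.47. Of 6 otic markers 3 were lower, and Sox10, with a difference of -0.27, was not called. Of 6 pluripotency markers limma called 0 between otospheres and CSE, adjusted or not.

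The genes whose levels followed each chemokine most closely were sought among 18564 genes with 1 probe each, by Pearson correlation over the 9 samples. These values are a description, because the 9 points share 3 groups and 2 slides. The closest to Ccl2 was Cxcl1, with r = 0.969. Cxcl1 was followed by Wdr92 and Serpina3n, a secreted protease inhibitor of the acute phase, at 0.977 and 0.976. Cxcl5 was followed by Serpina3f (0.995), Vtcn1 (0.993) and Csf2, the cytokine GM-CSF (0.993). Cx3cl1 was followed by Itln1 and Cbr2 (both 0.985) and by Il1r1, the signalling receptor of interleukin-1 (0.984). Ccl7 was followed by Tbc1d2b (0.987) and by the collagenase gene Mmp1b (0.985). Cxcl16 was followed by Msln, which encodes mesothelin, and Mybpc2 (both 0.995), Cxcl2 by Pik3ap1 (0.968), Cxcl12 by Ralyl (0.973) and Cxcl14 by Vmn1r207 (0.970).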

How the data were processed

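Total RNA, 50 or 100 ng per sample, was labelled with Cy3 and hybridised to Agilent mouse arrays. The deposited scanner files hold linear intensity values per spot, made by the authors with Feature Extraction 10.7.3.1. A second deposited file holds log2 values that the authors had corrected with limma, quantile-normalized and filtered, and it served as an alternative. Here limma 3.58.1 (R 4.3.3) applied normexp background correction with an offset of 16 to the median intensities, which were put on the log2 scale and quantile-normalized over 11 arrays. Control and outlier-flagged spots were left out and spots of a probe averaged. The filter kept probes that exceeded, by 10% or more and on 2 or more arrays, the level below which 95% of the 308 negative controls lay (47997 of 55681 probes). Well above background is the scanner software's own call. Between 55.1% and 71.6% of probes were well above background and no spot was saturated. The number of arrays limits the precision.

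Arrays closer to each other than spots of 1 array were averaged. Noise was first measured by ordinary SDs and then by median absolute deviations, which were adopted after both had been seen. Group means of 9 samples were fitted with limma (6 residual degrees of freedom before moderation), with a threshold of 0.05 on the adjusted p. Probes were named by accession through the RefSeq gene table, 26762 in all, and a gene was taken from its brightest kept probe. The members and lists were chosen with earlier results of these data known. Named were all members, of each list at most the 4 called genes with the largest difference, defining markers, receptors, sheddases and, per member, at most 3 genes of highest correlation; Csf1r and other defining markers appear whatever their result. The fit was tested on simulated data in which all samples had the spread of the CSE arrays. It therefore was not tested at the wider spread of the otospheres (for Cxcl5 an SD of 3.07 against 0.28 in CSE). Alternatives covered the offset, the processed signal, the deposited table, the filter, slide and replicate blocks, single arrays, an intensity trend, the mean over probes, and leaving out each sample.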

Additional observations from a re-analysis of the deposited data

How the results depend on the processing

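Over the 22 alternatives, no difference past the threshold for a member turned direction. The count of members higher in otospheres than in CSE, 5, ranged from 1 to 6 when single samples were left out, with 1 without CSE1 and 1 without CSE2, where only Cxcl16 stayed called. It was 4 with the authors' deposited log2 table and 5 when the values of that table were multiplied by the number of spots of each probe, an alternative added after its Ccl2 values had been seen. The count lower in otospheres than in CSE, 0, was 1 (Cxcl12) with every array separate, and ranged from 0 to 1 when samples were left out. For members higher in otospheres than in ESCs, leaving out single samples gave 4 to 7, against 6, and an offset of 50 gave 4, with Cxcl5 and Ccl7 lost. For CSE against ESCs, leaving out samples gave 1 to 2 members higher and 0 to 1 lower, against 1 and 1 (with 1 ESC sample left, it was assumed to vary like the other groups), and without both OS6 and CSE3, chosen from the levels of the members, 2 were higher in CSE than in ESCs, 8 in otospheres than in ESCs and 6 in otospheres than in CSE.

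Whether the replicate numbers pair the samples could not be decided. The correlations of the deviations of same-numbered otosphere and CSE arrays were 0.37, -0.57 and -0.36. OS1 and OS2 were nearly the same, so they could not each follow a different CSE array. With the replicate block and every array separate, 6 members were higher in otospheres than in CSE (Ccl7 joined), 6 than in ESCs, and 3 were higher in CSE than in ESCs. The number of samples limits what genes with a wide spread can show, as for Ccl7 between otospheres and CSE, with a 95% interval of -0.25 to 5.21. For Cxcl2, which lay near background, the difference between otospheres and CSE was 1.26 with an offset of 0, 0.73 with 16 and 0.41 with 50, and 2.29 with the processed signal.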
